A study of Rattus norvegicus with 36 samples.

Results

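A set of 10 genes of the circadian clock were followed in liver RNA of rats dosed with a brominated flame retardant, bis(2-ethylhexyl) tetrabromophthalate or TBPH. They are Dbp, Tef, Per2, Per3, Nr1d1, Nr1d2, Bhlhe41, Npas2, Clock and Cry1. A gene was represented by a probe set, the group of short array probes that reports a transcript, whose only annotated gene symbol was one of these names. Where a gene had several such probe sets, the one with the highest mean over the 36 arrays was used. All 10 genes were found, of 14217 genes with a probe set of their own on the array.

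RNA from the left liver lobe of male Sprague Dawley rats was measured on 36 Affymetrix 3′ expression arrays, in 6 groups of 6 arrays. The groups were vehicle (corn oil) and TBPH in corn oil at 0.07 mg/kg, 0.71 mg/kg, 7.06 mg/kg, 70.6 mg/kg and 706 mg/kg. Gavage of 5 ml/kg began at an age of 7 weeks and was repeated daily for 5 days, and necropsy followed on the next day. The labels number the arrays of a group but do not say that each is a separate animal, so p-values here measure the spread between these samples. The time of day at which each liver was taken is not given in the sources used here, so no array could be placed at a phase of the daily cycle.

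The clock of mammalian cells is a loop of transcription. CLOCK or its relative NPAS2 pairs with BMAL1 and activates genes that carry E-boxes, among them the Per and Cry repressors, the nuclear receptors Nr1d1 and Nr1d2 (REV-ERB alpha and beta) and the output factors Dbp and Tef. PER and CRY proteins then switch the activators off, while the REV-ERB proteins repress genes that carry a RORE element. In mouse liver Npas2, Clock and Cry1 peak at another time of day than Dbp, Tef, Per2 and Nr1d1. This is why the first 3 were tested for running against the other 4. The genes and tests were chosen with earlier results of these data known, so this grouping may not be independent of these arrays.

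The sites through which these factors act were looked up in the promoter windows of RefSeq (assembly GRCr8), 300 bases long, of which most precede a transcription start and the last few follow it. Of the 10 genes 9 were matched, with 11 windows in all, and Cry1 was not matched. The motifs were the E-box CACGTG, the D-box TTANGTAA bound by DBP and TEF, and the RORE in a form that ends in GGTCA, each read on both strands. The E-box was present in 3 of the 11 windows, those of Tef, Bhlhe41 and 1 of the 2 windows of Nr1d1, against 6.42% of all 33469 windows. The D-box was present only in the Per2 window, against 2.24% of all windows, and the RORE in 0 of the 11, against 2.72%. A match is a description of these letters and not of a bound site. The windows of Tef, Nr1d1 and Per2 are shown as examples of windows with a motif, which is in capitals. A relation of the motifs to the correlations below was not tested.
Tef, chr7:115206577-115206876, plus strand, E-box starting 198 bases before the start site: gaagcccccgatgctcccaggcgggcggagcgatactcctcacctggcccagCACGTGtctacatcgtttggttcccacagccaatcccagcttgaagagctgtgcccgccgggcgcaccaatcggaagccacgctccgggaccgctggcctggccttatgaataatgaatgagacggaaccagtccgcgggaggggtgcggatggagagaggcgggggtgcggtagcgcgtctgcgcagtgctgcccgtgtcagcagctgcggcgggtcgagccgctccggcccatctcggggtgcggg
Nr1d1, chr10:84229405-84229704, minus strand, E-box starting 191 bases before the start site: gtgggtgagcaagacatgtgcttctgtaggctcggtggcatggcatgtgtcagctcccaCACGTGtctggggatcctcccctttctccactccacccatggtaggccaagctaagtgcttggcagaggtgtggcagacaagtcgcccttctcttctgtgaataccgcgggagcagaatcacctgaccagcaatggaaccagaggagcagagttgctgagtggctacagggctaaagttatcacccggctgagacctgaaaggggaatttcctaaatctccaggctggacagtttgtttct
Per2, chr9:99496944-99497243, minus strand, D-box starting 192 bases before the start site: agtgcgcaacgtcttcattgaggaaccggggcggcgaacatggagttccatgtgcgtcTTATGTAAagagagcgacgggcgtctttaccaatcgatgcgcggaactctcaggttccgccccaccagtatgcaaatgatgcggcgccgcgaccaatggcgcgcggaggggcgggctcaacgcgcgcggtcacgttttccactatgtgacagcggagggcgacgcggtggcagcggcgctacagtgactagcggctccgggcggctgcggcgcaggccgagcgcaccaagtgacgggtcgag

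The values are log2 RMA intensities, so a difference of 1 is a doubling of the signal. Levels of different genes come from different probes and are not compared with each other. Liver markers were bright on every array. The mean of 6 hepatocyte markers (Alb, Apoa1, Ttr, Tdo2, Cyp2e1 and Serpina1) ran from 13.80 to 13.93 log2. Of the clock genes 4 were dim, with means over 36 arrays of 3.30 (Bhlhe41), 3.52 (Per3), 4.32 (Dbp) and 4.76 (Nr1d1) log2, where 48.6% of probe sets had a mean under 5. The other 6 averaged between 7.00 (Per2) and 8.57 (Clock) log2. Bulk liver RNA cannot tell fewer cells of a type from less RNA per cell.

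A pair of arrays stood apart from the rest. The GAPDH 3′ minus 5′ control difference was 0.41 log2 on replicate 5 of the 70.6 mg/kg group and 0.33 on replicate 4 of the 0.07 mg/kg group, against at most 0.09 on the other 34 arrays. This difference is commonly read as a measure of RNA quality. Within groups it correlated with Nr1d1 (r = 0.722), Tef (0.538), Dbp (0.495) and Cry1 (-0.658), and without the 2 arrays these values were 0.282, 0.107, -0.159 and -0.361. Values without these 2 arrays are given beside the results that rest on them.

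Cry1, a repressor of CLOCK and BMAL1, had one of the widest spreads of the group. Its lowest, median and highest values were 7.23, 7.50 and 8.06 log2 in vehicle, 6.81, 7.53 and 7.90 at 0.07 mg/kg, and 6.76, 7.05 and 7.71 at 0.71 mg/kg. They were 7.16, 7.57 and 7.90 at 7.06 mg/kg, 6.26, 7.19 and 7.21 at 70.6 mg/kg, and 6.97, 7.32 and 7.63 at 706 mg/kg. The 6 arrays at 70.6 mg/kg lay just below all 6 vehicle arrays, and every other dose overlapped vehicle. Its pooled SD within groups was 0.33 log2, above that of 96.8% of probe sets.

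The REV-ERB genes varied as widely. Nr1d1 had a lowest, median and highest value of 4.47, 4.60 and 4.97 log2 in vehicle, 4.20, 4.68 and 5.62 at 0.07 mg/kg, and 4.40, 4.73 and 5.35 at 0.71 mg/kg. At 7.06 mg/kg they were 4.30, 4.48 and 4.57, at 70.6 mg/kg 4.69, 4.84 and 6.60, and at 706 mg/kg 4.49, 4.61 and 5.56. All dose groups overlapped vehicle, and the highest value of all, 6.60, was that of replicate 5 at 70.6 mg/kg.

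For Nr1d2 the lowest, median and highest values were 5.99, 7.17 and 7.53 log2 in vehicle, 6.38, 7.20 and 7.73 at 0.07 mg/kg, and 7.16, 7.40 and 7.76 at 0.71 mg/kg. The 3 values were 6.60, 6.86 and 7.68 at 7.06 mg/kg, 7.18, 7.53 and 8.08 at 70.6 mg/kg, and 7.05, 7.18 and 7.68 at 706 mg/kg. One vehicle array, replicate 6, lay at 5.99, well under the 6.96 of the next lowest. The pooled SD within groups was 0.45 log2 for Nr1d1 and 0.38 for Nr1d2, above 98.8% and 97.9% of probe sets.

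Npas2 and Clock, the activators, had group medians close together. Those of Npas2 lay between 7.57 log2 at 706 mg/kg and 7.67 at 7.06 mg/kg, with 7.59 in vehicle, and its values ran from 7.15 to 7.91 over the 36 arrays. For Clock the medians lay between 8.65 at 7.06 mg/kg and 8.52 in vehicle, with a full range of 8.28 to 8.76. Both had their lowest value on replicate 5 at 70.6 mg/kg. Clock was narrow, with a pooled SD of 0.11 log2 that exceeded only 16.2% of probe sets, while that of Npas2, 0.22, exceeded 88.7%.

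The output factors Dbp and Tef, proline and acidic-rich bZIP activators of detoxification genes, each had their highest value on replicate 5 at 70.6 mg/kg. Dbp lay between 4.05 and 4.54 log2 on 35 arrays and at 5.32 on that one, with a pooled SD of 0.22 that exceeded 88.6% of probe sets. Tef ran from 7.18 to 7.70, with its 2 highest values, 7.70 and 7.55, on the 2 arrays that stood apart. Tef had a pooled SD of only 0.10 log2, above 9.6% of probe sets.

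Per2, Per3 and Bhlhe41 are repressors of the loop. The brightest probe set of Per2 had a range of 6.82 to 7.21 log2 and a pooled SD of 0.09, the smallest of the 10 used, whereas its second probe set had a pooled SD of 0.41. Per3 ran from 3.10 to 3.94 and Bhlhe41 from 2.84 to 3.78, both at the dim end of the scale.

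**Figure D1:**
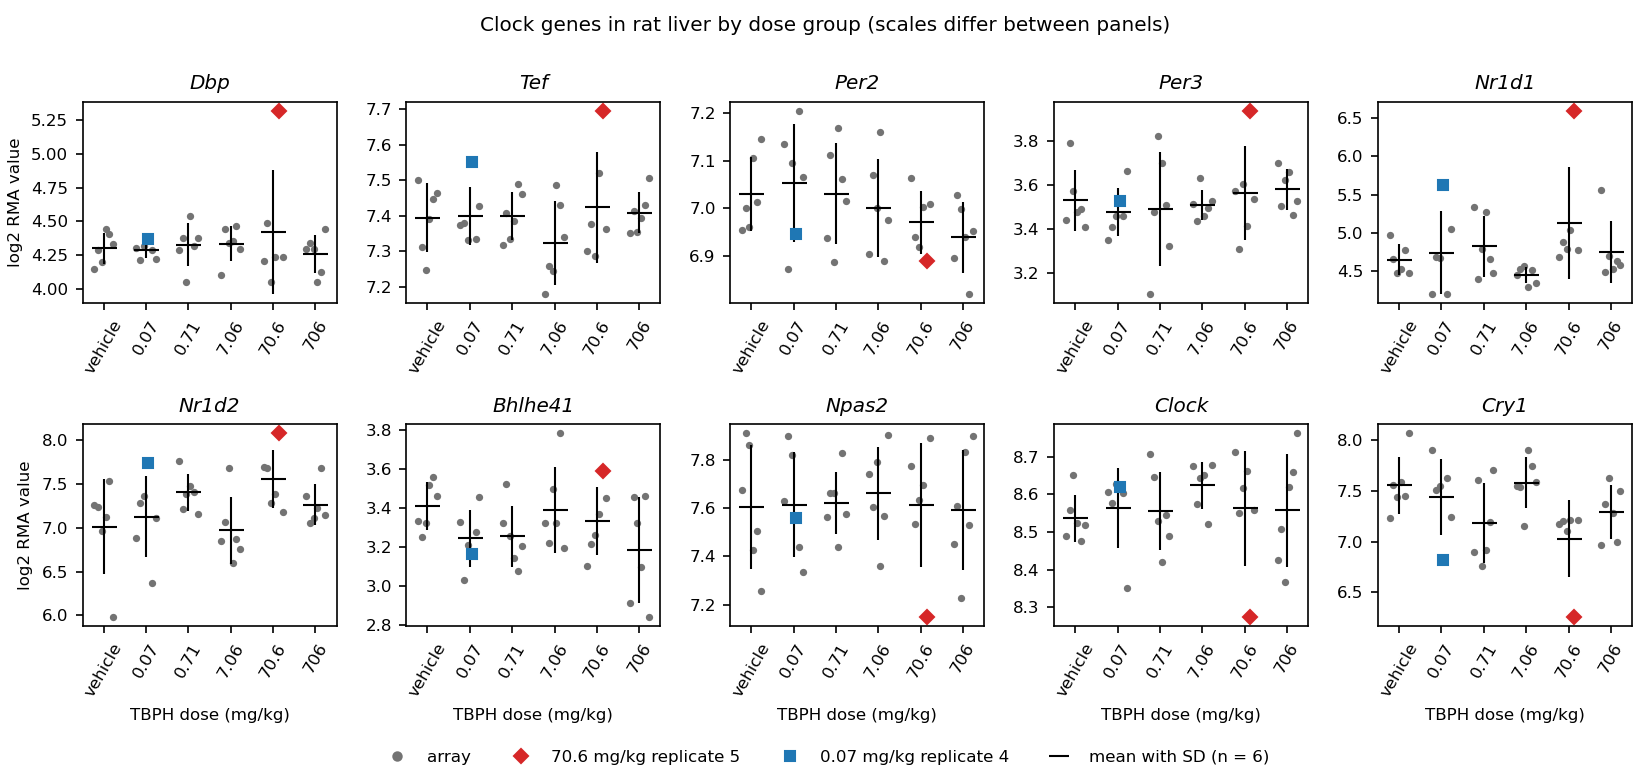
Log2 RMA value of each of the 10 clock genes (y axis, scales differ between panels) by TBPH dose in mg/kg (x axis), with a point per array and a line for the group mean with its SD (6 arrays). The diamond, replicate 5 at 70.6 mg/kg, is the highest of 36 arrays for Dbp, Tef, Per3, Nr1d1 and Nr1d2 and the lowest for Npas2, Clock and Cry1, and the square marks replicate 4 at 0.07 mg/kg.

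The first question was whether any dose moved these genes, as the series' design compares each dose with vehicle at a false discovery rate of 5%. All 5 comparisons share the 6 vehicle arrays and are not independent. With limma and Benjamini-Hochberg adjustment over 31042 probe sets, 0 of the 10 clock genes passed at each of the 5 doses, where 0% of all probe sets passed. The slope over dose rank and the test for any difference among the 6 groups also called 0 of 10, and 0% of all probe sets. A clock gene not passing does not show that it did not change, and the intervals below give what remained possible.

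At an unadjusted p under 0.05 the count was 0 of 10 clock genes at 0.07 mg/kg, where 3.03% of all probe sets reached that level, and 1 of 10 at 0.71 mg/kg, beside 3.95%. It was 0 at 7.06 mg/kg beside 3.41%, 3 at 70.6 mg/kg beside 5.26%, and 1 at 706 mg/kg beside 3.51%. For any difference it was 2 of 10 genes (Cry1 and Nr1d2), against 2.54% of all probe sets, and for the slope 1 of 10 (Per2, with a slope of -0.02 log2 per dose rank), against 4.12%. At 70.6 mg/kg 7 of the 10 differences were above 0 with a median of 0.03 log2, beside a median near 0 (-0.00212 log2) over all probe sets.

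The 3 genes at 70.6 mg/kg were Cry1, Nr1d2 and Nr1d1. Cry1 averaged 7.03 ± 0.38 log2 at 70.6 mg/kg and 7.55 ± 0.28 in vehicle (SD, n = 6 each), a difference of -0.53 with a 95% interval of -0.88 to -0.17 (limma adjusted p = 0.917). Its groups did not overlap, which held for 0.0999% of all probe sets in the lower direction. Nr1d2 averaged 7.55 ± 0.33 at 70.6 mg/kg and 7.01 ± 0.54 in vehicle (SD, n = 6 each), a difference of 0.54 (0.13 to 0.95). Nr1d1 averaged 5.13 ± 0.73 and 4.65 ± 0.20 in those groups (SD, n = 6 each), a difference of 0.48 (7.46e-05 to 0.97).

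Neither REV-ERB gene nor Cry1 passed the adjusted threshold at that dose, and the values moved without the 2 arrays that stood apart. The difference from vehicle at 70.6 mg/kg became -0.37 log2 for Cry1, 0.43 for Nr1d2 and 0.19 for Nr1d1, with a limma adjusted p of 0.999 for each. At 0.71 mg/kg the same 3 genes differed from vehicle by -0.37 (-0.73 to -0.02), 0.39 (-0.02 to 0.80) and 0.18 (-0.31 to 0.66) log2, and only Cry1 had an unadjusted p under 0.05. At 7.06 mg/kg the differences were 0.03, -0.04 and -0.20. At 706 mg/kg they were -0.26, 0.25 and 0.10, so that the differences of Cry1 and Nr1d2 did not follow the order of dose.

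Bhlhe41 averaged 3.18 ± 0.27 log2 at 706 mg/kg and 3.41 ± 0.12 in vehicle (SD, n = 6 each), a difference of -0.22 with an interval of -0.44 to -0.01 (limma adjusted p = 0.999). The intervals of the other genes at that dose included 0. At 706 mg/kg the difference from vehicle was -0.04 (-0.29 to 0.20) for Dbp, 0.01 (-0.11 to 0.14) for Tef, -0.09 (-0.21 to 0.03) for Per2 and 0.05 (-0.14 to 0.24) for Per3. For Npas2 it was -0.01 (-0.26 to 0.23) and for Clock 0.02 (-0.11 to 0.16).

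**Figure D2:**
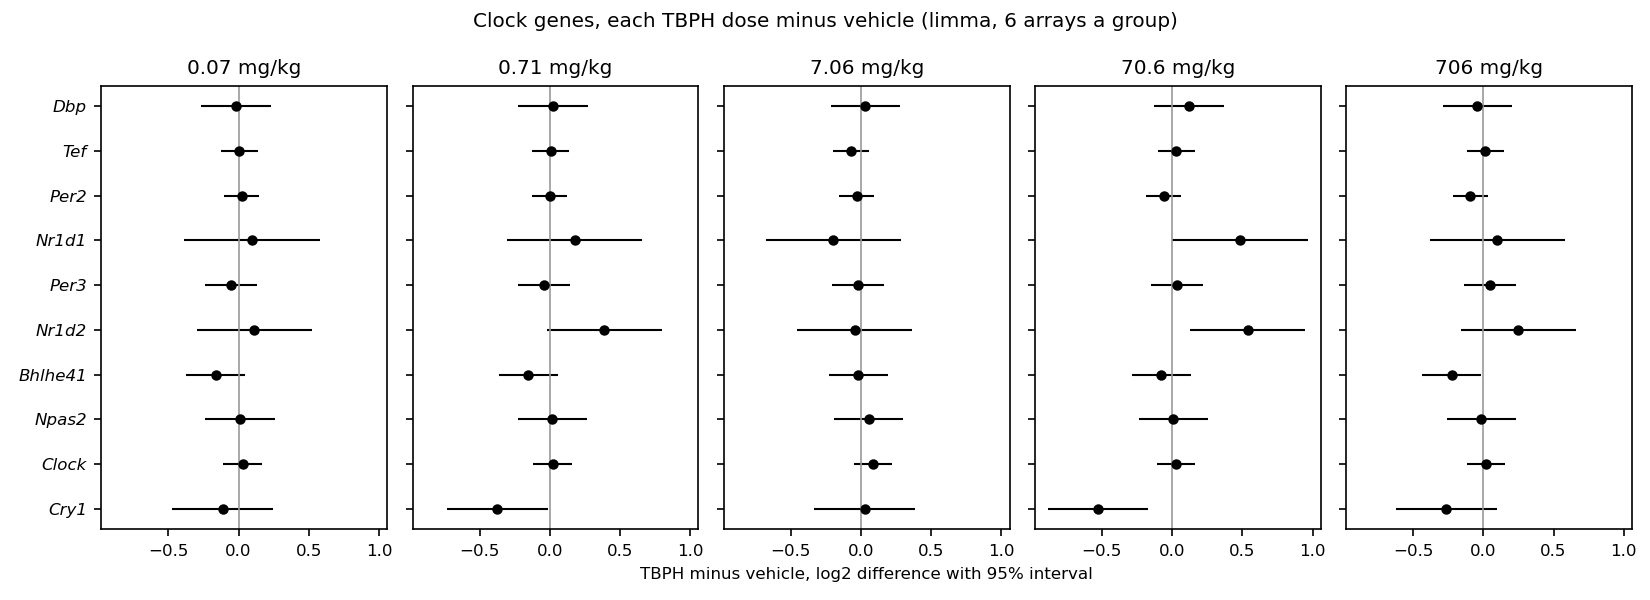
Log2 difference of each TBPH dose from vehicle for the 10 clock genes (x axis), with a panel per dose and lines for the 95% interval of the limma fit with 6 arrays a group. Cry1 at 70.6 mg/kg has the lowest value, -0.53, and Nr1d2 the highest, 0.54, and none of the points passes the adjusted threshold.

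The other question was whether the clock genes varied together from array to array. Each value was set against its group mean and correlated over the 36 arrays, for all 45 pairs of the 10 genes. P-values came from a two-sided permutation test with 100000 resamples that shuffled arrays within groups, and were adjusted over the 45 pairs. The smallest p such a test can give is 1e-05. With the threshold at 0.05, 8 of the 45 pairs passed, 4 negative and 4 positive, while 23 of all pairs were negative and 22 positive. Without replicate 5 at 70.6 mg/kg 2 negative and 2 positive pairs passed, and without both arrays that stood apart 2 negative and 3 positive pairs. At an unadjusted permutation p under 0.05 there were 12 negative and 6 positive pairs over 36 arrays. Among all probe sets, 4565 of 31041 reached an unadjusted limma p under 0.05 for a within-group slope on Dbp. For Npas2 it was 5337, for Cry1 5929 and for Clock 5485 of 31038. Relations of that strength were thus not rare on these arrays.

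Cry1 ran against both REV-ERB genes. With Nr1d1 the correlation was r = -0.797 (p = 1e-05, adjusted p = 0.0003) and rho = -0.747 (p = 2e-05). Within single groups of 6 arrays it ran from -0.974 at 70.6 mg/kg to -0.550 at 706 mg/kg, negative in 6 of 6 groups. Without the 2 arrays that stood apart r was -0.664 (adjusted p = 0.00585), and those were also the 2 arrays farthest out in Nr1d1.

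Against Nr1d2 Cry1 had r = -0.732 (p = 2e-05, adjusted p = 0.0003) and rho = -0.740 (p = 1e-05), again negative in 6 of 6 groups, from -0.923 at 7.06 mg/kg to -0.688 at 0.07 mg/kg. It was -0.663 (adjusted p = 0.00585) without the 2 arrays that stood apart and -0.742 without the 2 farthest in Nr1d2. The second probe set of Nr1d2, which followed the first (r = 0.854), had -0.491 with Cry1 (adjusted p = 0.0440). The REV-ERB genes themselves rose and fell together, with r = 0.584 (p = 2e-05, adjusted p = 0.0003), rho = 0.660 and a positive value in every group. That was 0.471 (adjusted p = 0.0196) without the 2 arrays, and 0.315 (adjusted p = 0.183) with the second probe set of Nr1d2.

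Npas2 and Clock, the alternative partners of BMAL1, also moved together. Their correlation was r = 0.645 (p = 0.00013, adjusted p = 0.00146) and rho = 0.594 (p = 0.00041), positive in all groups from 0.292 at 0.71 mg/kg to 0.848 at 706 mg/kg. It was 0.563 (adjusted p = 0.0196) without the 2 arrays and 0.479 (adjusted p = 0.0404) without the 2 farthest in Npas2. Between Npas2 and the second probe set of Clock it was 0.429 (adjusted p = 0.116). Neither was clearly tied to Cry1, at 0.0881 for Npas2 (adjusted p = 0.825) and 0.253 for Clock (adjusted p = 0.330).

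**Figure D3:**
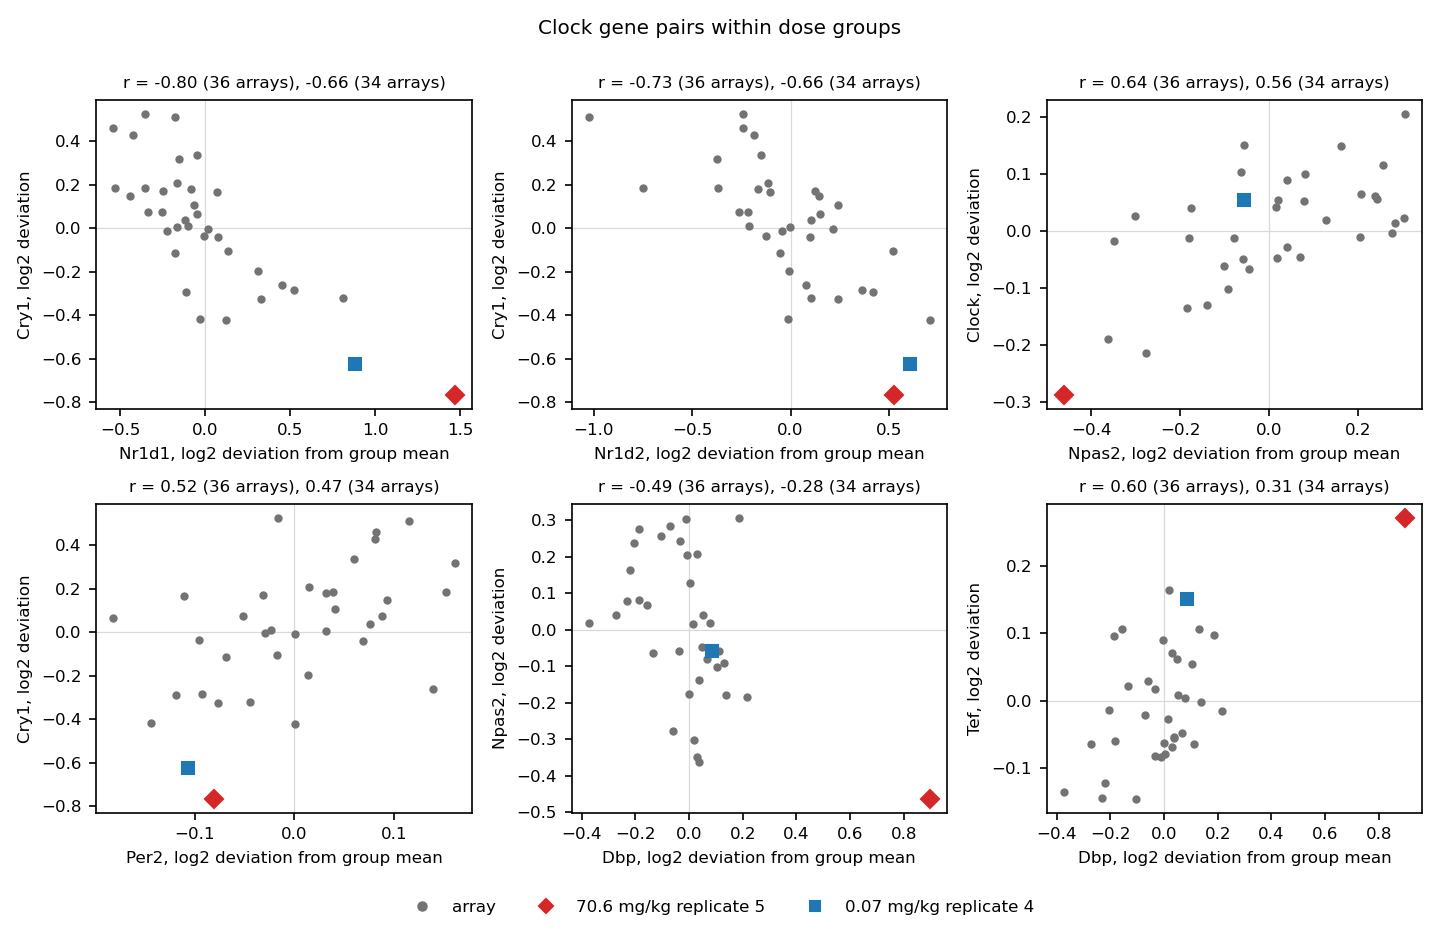
Deviation of 36 arrays from their group means, in log2, for 6 pairs of clock genes, with r over all arrays and over 34 arrays above each panel. Nr1d1 and Nr1d2 fall as Cry1 rises (r of -0.80 and -0.73), whereas the diamond, replicate 5 at 70.6 mg/kg, carries much of the relation of Dbp to Npas2 and to Tef.

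Of the 12 pairs that set Npas2, Clock or Cry1 against Dbp, Tef, Per2 or Nr1d1, 11 were negative, with a median r of -0.358. In rho over the same 36 arrays 9 of the 12 were negative, with a median of -0.27. Of the 12, 2 passed as negative, Nr1d1 with Cry1 and Dbp with Npas2, and 1 as positive, Per2 with Cry1. Dbp and Npas2 had r = -0.490 (p = 0.00882, adjusted p = 0.0496) and rho = -0.464 (adjusted p = 0.0349). The sign was negative in 6 of 6 groups, from -0.893 at 70.6 mg/kg to values near 0 at 0.07 mg/kg (-0.0216) and 706 mg/kg (-0.00125). The call lay close to the threshold and held in 17 of 36 omissions of a single array. Of these omissions r was weakest without replicate 5 at 70.6 mg/kg, at -0.283 (permutation adjusted p = 0.349). Without both arrays 9 of the 12 pairs were negative, the median was -0.197 and 1 passed.

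The other opposed pairs did not pass. Clock had -0.516 with Dbp (adjusted p = 0.0771), -0.512 with Nr1d1 (adjusted p = 0.0721), -0.327 with Tef and -0.00762 with Per2. For Npas2 the values were -0.401 with Nr1d1, -0.389 with Tef and -0.250 with Per2, all with an adjusted p of 0.0998 or more. Clock with Nr1d1 and with Dbp became -0.393 and -0.221 without the 2 arrays. With the second probe set of Clock, which had r = 0.449 with the first, they were -0.163 and -0.0683. Npas2 with the second probe set of Tef had 0.0388. With second probe sets of both genes, Clock had 0.0969 with Tef and -0.172 with Per2.

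Cry1 changed sign with the output factors when the 2 arrays were left out. Its correlation with Dbp was -0.247 over 36 arrays and 0.348 over 34, and with Tef -0.141 and 0.346, and none of these passed. Dbp and Tef correlated at r = 0.599 (p = 0.00472, adjusted p = 0.0303) over 36 arrays, but at 0.339 (adjusted p = 0.278) without replicate 5 at 70.6 mg/kg.

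In its relations to Cry1 and the REV-ERB genes, Per2 went against its place among the genes of the Dbp side. With Cry1 it was positive, at r = 0.525 (p = 0.00307, adjusted p = 0.0276) and rho = 0.564 (p = 0.00107), in 6 of 6 groups from 0.258 at 7.06 mg/kg to 0.876 in vehicle. Per2 with Nr1d2 was negative, at r = -0.503 (p = 0.00375, adjusted p = 0.0281), in 6 of 6 groups from -0.972 at 706 mg/kg to -0.124 at 7.06 mg/kg. With Nr1d1 it was also negative in 6 of 6 groups, from -0.634 at 70.6 mg/kg to -0.0699 at 0.71 mg/kg. There r did not pass (-0.391, adjusted p = 0.0741) and rho did (-0.465, adjusted p = 0.0349). Without the 2 farthest arrays in Per2 these 3 were 0.564, -0.484 and -0.441. Without the 2 arrays that stood apart they were 0.467 (adjusted p = 0.118), -0.441 (adjusted p = 0.118) and -0.306, and the first 2 no longer passed.

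The second probe set of Per2 followed the first (r = 0.612) and gave 0.576 with Cry1 and -0.516 with Nr1d2, the latter against the second probe set of that gene. With Dbp, Per2 had 0.111 over 36 arrays and 0.484 over 34 (permutation p = 0.00407, adjusted p = 0.0366). Within the Dbp side, 4 of the 6 pairs were positive and 1 passed, Dbp with Tef. On the side of Npas2, Clock and Cry1 the 3 pairs were positive and 1 passed. Without the 2 arrays Npas2 with Cry1 was -0.174, the other 2 pairs were positive and the same pair, Npas2 with Clock, passed.

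Per3 and Bhlhe41 gave no pair past the threshold in r over 36 arrays. Per3 came nearest with Cry1, at r = -0.490 (p = 0.0126, adjusted p = 0.0513), negative in 6 of 6 groups from -0.888 at 70.6 mg/kg to -0.0715 at 706 mg/kg. That pair passed in rho (-0.488, adjusted p = 0.0349) and without the 2 farthest arrays in Per3 (r = -0.550, adjusted p = 0.0404). Per3 was next nearest with Clock, at -0.472 (permutation p = 0.0118, adjusted p = 0.0513). Bhlhe41 came nearest with Npas2, at -0.456 (permutation p = 0.0105, adjusted p = 0.0513), also negative in 6 of 6 groups, from -0.821 in vehicle to -0.0628 at 0.71 mg/kg. These 3 became -0.356, -0.319 and -0.398 without the 2 arrays. Both genes were dim, and the second probe set of Per3 did not follow the first (r = -0.209).

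**Figure D4:**
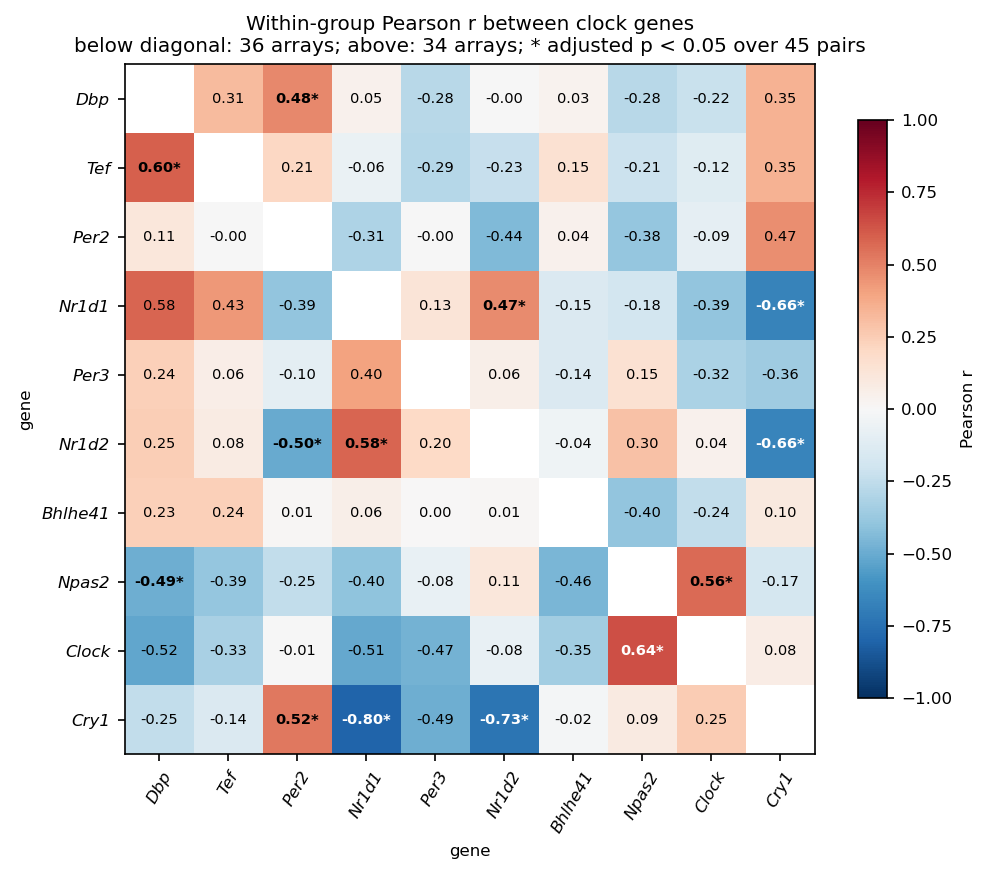
Within-group Pearson r of the 45 pairs of clock genes, over 36 arrays below the diagonal and over the 34 arrays without the 2 that stood apart above it; both axes are genes, the colour scale runs from -1 to 1 and an asterisk marks an adjusted p under 0.05. Cry1 with Nr1d1 (-0.80 and -0.66) and Nr1d2 (-0.73 and -0.66) and Npas2 with Clock (0.64 and 0.56) carry asterisks on both sides.

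With replicate 5 at 70.6 mg/kg the median r of the 12 opposed pairs was -0.358, and without it -0.194. That array lay at the extreme of most of these genes. It was the highest of 36 arrays in Dbp (5.32), Tef (7.70), Per3 (3.94), Nr1d1 (6.60) and Nr1d2 (8.08 log2), and the lowest in Npas2 (7.15), Clock (8.28) and Cry1 (6.26 log2). Bhlhe41 was second from the top at 3.59, and Per2, at 6.89, was 32nd of 36 from the top. Replicate 4 at 0.07 mg/kg was second from the top in Tef and in Nr1d1 (5.62) and 34th in Cry1 (6.81), but 24th in Npas2 and 13th in Clock. The GAPDH 3′ minus 5′ difference was also used as a covariate, with a t test of the partial correlation in place of permutation. The pairs Nr1d1 with Cry1 (-0.618, adjusted p = 0.0041), Nr1d2 with Cry1 (-0.762), Nr1d1 with Nr1d2 (0.581) and Npas2 with Clock (0.634) still passed over 36 arrays. Under that covariate Per2 with Cry1 (0.417), Per2 with Nr1d2 (-0.452), Dbp with Npas2 (-0.481) and Dbp with Tef (0.455) did not, with adjusted p from 0.0533 to 0.0756.

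Markers of other cell types were read on the same arrays, with 27 of 29 listed genes measured. Means of the markers of 8 cell types (hepatocytes, Kupffer cells, sinusoidal endothelium, stellate cells, cholangiocytes, lymphocytes, erythroid cells and pancreas) had within-group correlations of -0.421 to 0.382 over the 80 pairs of a clock gene and a cell type. The lowest was that of Npas2 with the lymphocyte markers Cd3e, Cd79b and Ms4a1, whose mean ran from 4.59 to 5.18 log2. Clock also correlated with the median of its array, at -0.458 over 36 arrays and -0.587 over 34, and Npas2 at -0.339 and -0.452. With each array centred on its median, Npas2 with Clock was 0.674 (adjusted p = 0.00124) and Nr1d1 with Cry1 -0.812. Under that centring Dbp with Npas2 was -0.427 and no longer passed (permutation adjusted p = 0.0991). Clock had -0.407 with Dbp and -0.441 with Nr1d1 (permutation adjusted p = 0.157 and 0.129). The part of the cell type markers in the pair correlations was not tested.

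To set these relations against the rest of the array, every probe set was fitted on the level of a clock gene within groups with limma. Of 31041 probe sets (31038 in the Clock fit), 0.18% rose with Dbp and 0.596% fell as Dbp rose. For Npas2 these shares were 1.64% and 0.409%, for Clock 0.799% and 0.296%, and for Cry1 3.31% and 2.39%. The numbers of clock genes called among the other 9 were 1 for Dbp, 1 for Npas2, 1 for Clock and 2 for Cry1.

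Nr1d1 had the lowest correlation with Cry1 of all probe sets (limma adjusted p = 0.000207), and Nr1d2 the 5th lowest (adjusted p = 0.0013). Clock rose with Npas2 (limma adjusted p = 0.0229) with a correlation above 99.5% of probe sets, and Nr1d1 with Dbp (r = 0.580, adjusted p = 0.0415), above 99.7%. The last of these did not pass among the 45 pairs (permutation adjusted p = 0.113), and r was 0.107 without replicate 5 at 70.6 mg/kg and 0.0452 without both arrays that stood apart. Of the other pairs that passed among the 45, Per2 with Cry1 (adjusted p = 0.0878 here), Dbp with Tef (0.0772) and Dbp with Npas2 (0.114 in the Dbp fit) did not pass against the whole array. Nr1d1 with Nr1d2 and Per2 with Nr1d2 were not fitted in this way. Without the 2 arrays that stood apart 0 of the 9 genes were called in each of the 4 fits, and the smallest limma adjusted p was 0.0637, that of Npas2 in the Clock fit. The number of all probe sets called against Cry1 was 0 without the 2 arrays, against 1771 with them, so that no calls were left there to compare with. At an unadjusted p under 0.05, 3 of the 9 clock genes and 2191 probe sets remained below that level in the Cry1 fit.

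**Figure D5:**
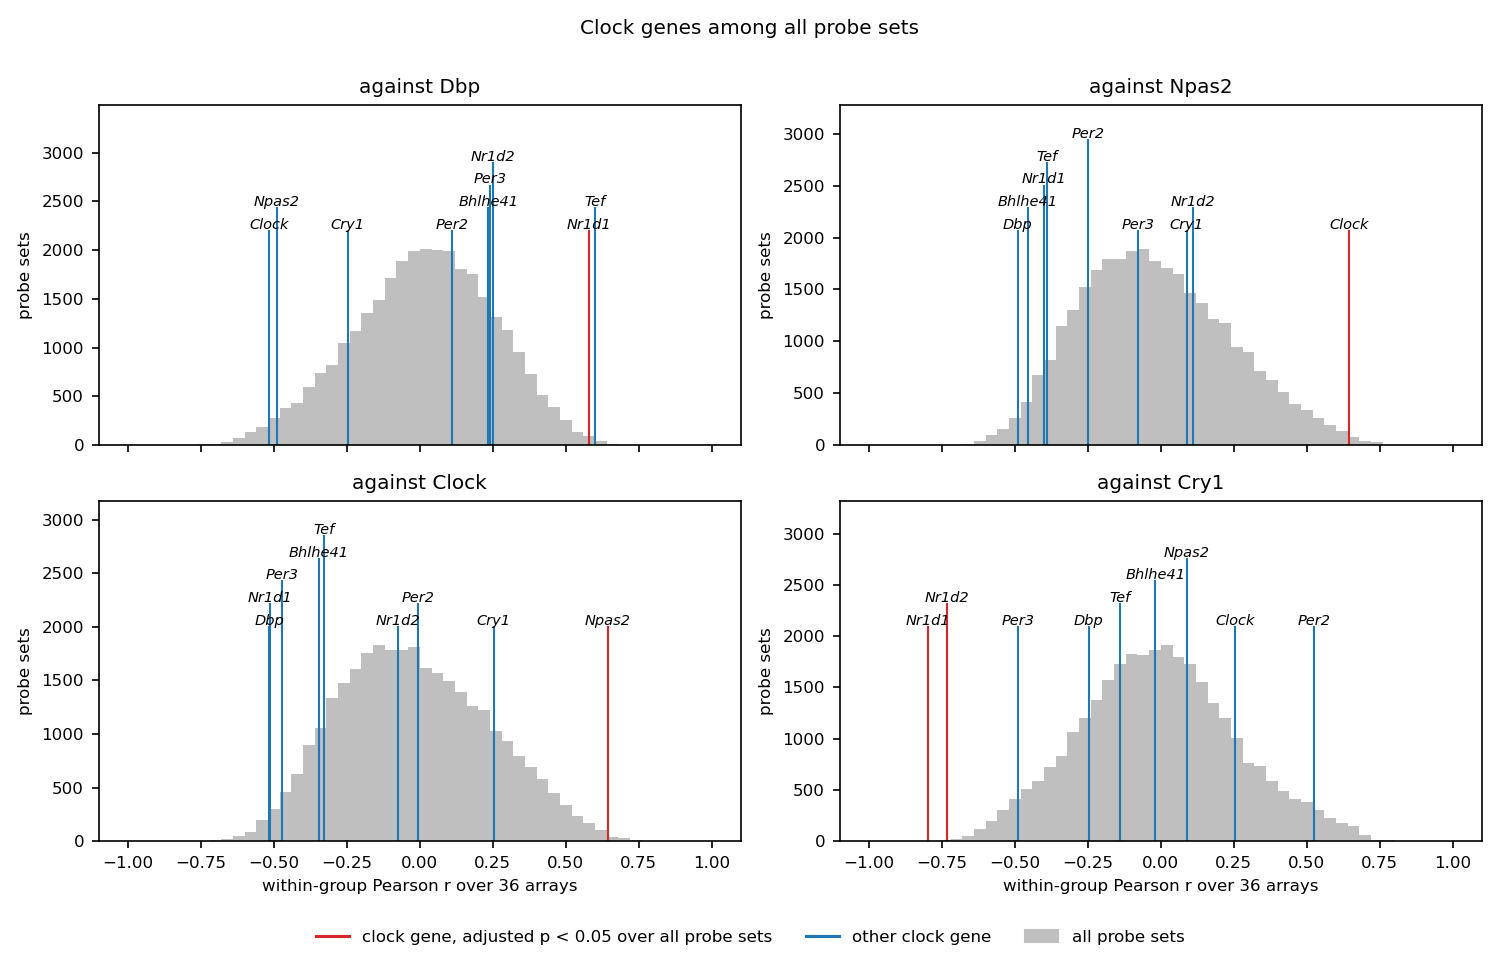
Number of probe sets (y axis) by their within-group Pearson r with Dbp, Npas2, Clock or Cry1 over 36 arrays (x axis), with vertical lines at the other clock genes, whose heights carry no value; red lines have a limma adjusted p under 0.05 over all probe sets. Nr1d1 and Nr1d2 lie at the far left of the Cry1 panel (-0.797 and -0.732), and Clock lies at the right end of the Npas2 panel (0.645).

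A wider list of 22 clock and clock-output genes was read beside the 10, of which 18 were measured. No dose called any of the 18 (limma), where 0% of all probe sets passed. At an unadjusted p under 0.05 the count was 3 of 18 at 70.6 mg/kg, beside 5.26% of all probe sets. These were Nfil3, Bhlhe40 and Cyp7a1, which starts bile acid synthesis, at -1.01 log2. At each other dose it was 0 of 18, beside 3.03% to 3.95% of all probe sets. Among the core genes, Bmal1, the shared partner of CLOCK and NPAS2, differed from vehicle by -0.11 to 0.01 log2 over the 5 doses. The range was -0.12 to 0.04 for the repressor Per1, -0.09 to 0.14 for the repressor Cry2 and 0.06 to 0.14 for Hlf, a relative of Dbp and Tef. Nfil3, a repressor at D-boxes, lay above vehicle at each dose, by 0.19 to 0.37, and Bhlhe40, a relative of Bhlhe41, by 0.11 to 0.84. Neither passed, and at 70.6 mg/kg their intervals were 0.11 to 0.63 for Nfil3 and 0.08 to 1.61 for Bhlhe40.

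Within groups, Rora, an activator at ROREs, stood out of the 18. It fell as Dbp rose (r = -0.680, limma adjusted p = 0.00924) and rose with Cry1 (0.670, adjusted p = 0.00318), with Npas2 (0.569, adjusted p = 0.0285) and with Clock (0.565, adjusted p = 0.0424). Without the 2 arrays that stood apart these were -0.217, 0.397, 0.491 and 0.507, and none passed. Wee1, a cell cycle kinase under clock control, rose with Cry1 (0.648, limma adjusted p = 0.00698), at 0.597 and an adjusted p of 0.387 over 34 arrays.

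Nfil3 rose with Npas2 whether the 2 arrays were included (0.565, limma adjusted p = 0.0333) or not (0.565, adjusted p = 0.0373). Bhlhe40 had 0.385 with Npas2 over 36 arrays, which did not pass, and 0.587 (limma adjusted p = 0.0224) over 34. Bmal1, in contrast, had 0.0813 with Npas2, 0.475 with Clock (adjusted p = 0.126) and 0.409 with Cry1 (adjusted p = 0.162), and passed in none of the fits.

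The genes most like Npas2 in their variation over the 36 arrays were Wdfy3, an autophagy adaptor (r = 0.839), Zbtb20, a zinc finger repressor (0.825), Trio, an exchange factor for small GTPases (0.808), Sorl1, a sorting receptor (0.781), and Thrb, the thyroid hormone receptor beta (0.777). Avl9, Pcmtd2 and Ccdc50 followed at 0.769, 0.760 and 0.758. Their limma adjusted p ran from 8.07e-05 to 0.00252, and without the 2 arrays their r lay between 0.696 and 0.831. The most opposite were Ky, Scmh1, Bpifa5, Adam18 and LOC102555491, from -0.742 to -0.661, and these 5 also passed without the 2 arrays. Clock, at 0.645, lay below these 8 genes, and no test compared the values.

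Genes most like Dbp were S100a8, a calcium-binding protein of neutrophils (r = 0.792), Slc35c2 (0.762), Fbxl15 (0.719), Elp6 (0.710), Lpal2 (0.672), Kdelr2, a retrieval receptor of the endoplasmic reticulum (0.644), Szrd1 (0.644) and Prl3d4 (0.642). The most opposite were Srp72, Arid1a, Dsp, Ptprb and Itsn2, from -0.741 to -0.707. None of these 13 passed without the 2 arrays, where the r of the first 8 lay between 0.254 and 0.601 and the smallest adjusted p was 0.972.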

How the data were processed

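The authors deposited 1 log2 value per probe set and array on the RMA scale (background correction, quantile normalization and a summary per probe set), with RMA and affy named per the submitters' processing notes, no versions, and a genome build not given in the sources used here. The values ran from 1.86 to 14.77 log2 with 0 missing. Arrays give no read depth, and their number limits the precision. The table holds 31099 probe sets, less 57 array controls that were set aside. The platform annotation gave 1 symbol for 20826 probe sets, several for 436 and none for 9780.

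Groups came from the labels. The design text names R/maanova, and limma 3.58.1 in R 4.3.3, the nearest fit at hand, was used on all 36 arrays with 1 mean per group, a variance trend and Benjamini-Hochberg adjustment over 31042 probe sets. Slopes of all probe sets on Dbp, Npas2, Clock and Cry1 were fitted with group means in the model, leaving out that gene's own probe sets. Correlations within groups were tested by permutation in scipy 1.17.1 and adjusted over 45 pairs. The replicate block and the GAPDH covariate of these pairs used a t test instead. The scripts were tested on simulated data.

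The named genes are the 10 clock genes, 22 other clock and output genes and, among genes past the threshold, the 8 most like and 5 most opposite to Dbp and to Npas2. Of the 22, 18 were measured, and some items are not reported here. The clock genes, lists and tests were chosen with earlier results of these data known. Deviations of same-numbered replicates had a median r of -0.0195 over 90 pairs, 17 over 0.1. Those of other numbers had a median of -0.00336 over 450 pairs, 101 over 0.1. No pairing was found, which does not exclude one, and the numbers were not taken as pairs. Plots used Python 3.11.15 with matplotlib 3.10.9.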

Additional observations from a re-analysis of the deposited data

Results flagged for a closer look

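A value was listed here when it lay far from the other 5 of its group, with a gap to its nearest neighbour above Dixon's critical share of the group's range. Of 60 sets of 6 arrays (10 genes in 6 groups) 7 were listed, and chance alone gives about 1 in 20.

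Of the 7 values 4 belong to replicate 5 at 70.6 mg/kg, an array with a high GAPDH 3′ minus 5′ difference. It had Dbp at 5.3204 log2 against 4.05 to 4.49 in the rest of its group, and Nr1d1 at 6.5979 against 4.69 to 5.04. The same array had Clock at 8.2754 against 8.55 to 8.71 and Cry1 at 6.261 against 7.10 to 7.21.

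The remaining 3 were on other arrays. Nr1d1 was 5.5575 log2 on replicate 1 at 706 mg/kg against 4.49 to 4.70 in the rest of that group. Clock was 8.3507 on replicate 6 at 0.07 mg/kg against 8.58 to 8.63. Nr1d2 was 5.9871 on replicate 6 of vehicle against 6.96 to 7.53, the lowest Nr1d2 value of the 36 arrays.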

How the results depend on the processing

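With limma the count of clock genes called by dose, slope or any difference was 0 under every alternative that kept the adjusted threshold, and 0 without each array in turn. At an unadjusted p under 0.05 it became 1 at 0.71 mg/kg, 3 at 70.6 mg/kg, 1 at 706 mg/kg, 2 for any difference and 1 for the slope. The pairs of Cry1 with Nr1d1 and with Nr1d2 passed in all 8 other settings and without each of 36 arrays. For Nr1d1 with Cry1 the second probe set changes nothing, since each has 1, and the 2 farthest arrays are those that stand apart. Npas2 with Clock and Nr1d1 with Nr1d2 failed only with second probe sets. Per2 with Cry1 and Per2 with Nr1d2 passed in 6 of 8 settings and 33 of 36 omissions, Dbp with Tef in 3 of 8 and 29 of 36, and Dbp with Npas2 in 2 of 8 and 17 of 36.

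For the pairs, the replicate block and the GAPDH covariate were tested with a t test of the partial correlation, not by permutation. A changed call there can come from the model or from the test. Under the block r was -0.483 for Dbp with Clock, against -0.516 without it. The 2 opposed pairs became 3 with the block, where Dbp with Clock (t test adjusted p = 0.0442) and Nr1d1 with Clock (0.0254) passed and Dbp with Npas2 (0.0517) did not. They became 5 without group centring and 1 with the GAPDH covariate, without the 2 arrays that stand apart, with arrays centred on their medians, with second probe sets or without the 2 farthest arrays, and 1 to 3 without single arrays. The 1 same-side pair among Dbp, Tef, Per2 and Nr1d1 became 3 without group centring and 3 with replicate number as a block, the latter by the t test. It became 0 with rho, the GAPDH covariate, second probe sets or without the 2 farthest arrays, and 0 to 1 without single arrays. The 1 pair among Npas2, Clock and Cry1 became 0 with second probe sets and was 1 without each single array.

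Against Dbp, the 1 clock gene called became 0 with robust moderation, array weights, the GAPDH covariate or without the 2 arrays, and 0 to 3 without single arrays. Against Npas2, 1 became 0 with the replicate block, array weights, a further quantile normalization or without the 2 arrays, and 0 to 1 without single arrays. Against Clock, 1 became 0 with array weights, the further normalization or without the 2 arrays, and 0 to 2 without single arrays. Against Cry1, 2 became 0 without the 2 arrays and 1 with the GAPDH covariate, and 2 to 3 without single arrays. The cause of each change was not tested. No called value changed sign.

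No pairing by replicate number was found, which does not exclude one. Of 36 arrays 4 correlated best with an array of their own number. For a difference among numbers 0 of 10 clock genes and 0% of probe sets passed (limma). Tef had the smallest unadjusted p of the 10, at 0.0236 (limma F test). Signal near the background limits Bhlhe41, Per3, Dbp and Nr1d1.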
